A study of Homo sapiens with 21 samples.

Results

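The genes described here are the ligands and receptors of axon guidance, chosen by symbol alone: the semaphorins, ephrins, slits and netrins, and the plexins, neuropilins, Eph receptors, roundabout (ROBO) receptors and the netrin receptors UNC5A to UNC5D and DCC. The rule matched 69 of the 57820 genes in the deposited tables, 35 ligands and 34 receptors. Their RNA was measured by total RNA sequencing in the neuroblastoma line NLF, of human origin, and in derivatives of it. There are 7 groups with 3 libraries each, 21 in all. YAPKO2 and YAPKO1 are NLF lines labelled as YAP1 gene knockouts, each with a different YAP1 guide RNA in its labels, and sgCON is an NLF line that received a scrambled guide with Cas9 by lentivirus. Each of these lines was grown with 20 nM trametinib, an inhibitor of the MEK kinases, or with its solvent DMSO for 72 h, starting 24 h after plating. The remaining group is the parental NLF line, for which the labels name no guide. Sample labels name DMSO for the parental cells too, while the series text names that treatment for the derived lines. The labels do not say whether a line is a clone or a pool. Nothing in them says that the replicates of a group are separate cultures, so p-values measure the spread between these libraries, which may be technical.

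Axon guidance molecules steer growing nerve fibres and migrating cells. Secreted class 3 semaphorins bind neuropilins, which signal through plexins, while membrane-bound semaphorins mostly bind plexins directly. Ephrins of the A type are held in the membrane by a lipid anchor and those of the B type span it, and both bind Eph receptor tyrosine kinases on neighbouring cells. Slits bind ROBO receptors, and netrins bind DCC and the UNC5 receptors. Neuroblastoma arises from the sympathetic lineage of the neural crest, whose cells migrate along semaphorin, ephrin and slit boundaries in the embryo. YAP1 encodes a coactivator that the Hippo pathway restrains and that acts on DNA through TEAD factors.

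Levels are FPKM (fragments of a transcript, scaled to its length and to the number of fragments mapped), scaled between libraries by 1 factor each. Changes are differences of log2(FPKM + 0.5) with their standard error from limma, a linear model fitted to all 16194 genes with at least 1 FPKM in at least 3 libraries, and a change is called where the p-value, adjusted by Benjamini and Hochberg's method over all of these genes, is below 0.05. The pseudocount of 0.5 understates the change of low genes. The targeted gene YAP1 had 3.17, 2.69 and 2.81 FPKM in YAPKO2 cells and 13.2, 12.9 and 9.05 FPKM in YAPKO1 cells in DMSO, against 24.9, 24.2 and 27.7 FPKM in sgCON cells. Its log2 change was -2.95 ± 0.23 in YAPKO2 (adjusted p = 5.03e-08) and -1.12 ± 0.23 in YAPKO1 (adjusted p = 0.00365), with every YAPKO1 library between those of the other lines. In trametinib YAP1 had 2.73, 1.16 and 3.69 FPKM in YAPKO2 cells and 12.5, 11.9 and 10.1 FPKM in YAPKO1 cells, against 22.7, 24.5 and 22.7 FPKM in sgCON cells. Parental cells had 29.4, 32.8 and 33.3 FPKM. The number of reads is unknown in FPKM; depth relative to a parental library ran from 0.766 to 1.66, and 13728 to 14425 genes reached 1 FPKM. Libraries also differed in how GC-rich and GC-poor transcripts were represented. The median log2 deviation of the quartile of protein-coding genes richest in GC minus that of the poorest quartile was lowest among parental cells, at -0.60, and highest, at 1.32, in replicate 2 of YAPKO2 with trametinib. YAPKO2 trametinib replicate 3, at -0.25, and YAPKO1 DMSO replicate 3, at 0.66, stood apart from the other libraries of their groups. Of 9 adrenergic neuroblastoma markers, 8 were expressed, with summed levels of 497 to 550 FPKM in YAPKO2, 460 to 605 FPKM in YAPKO1 and 331 to 349 FPKM in sgCON cells in DMSO, and 273 to 292 FPKM in parental cells. TH, which encodes the first enzyme of catecholamine synthesis, stayed under 1 FPKM in every library. The 5 fibroblast markers were all detected, at 331 to 564 FPKM in YAPKO2, 107 to 391 FPKM in YAPKO1 and 324 to 421 FPKM in sgCON cells in DMSO, 146 to 296, 74.5 to 162 and 326 to 448 FPKM in the same 3 lines in trametinib, and 665 to 728 FPKM in parental cells. The 7 mesenchymal markers, of which YAP1 is 1 and CD44 was at or near 0, summed to 1487 to 1836 FPKM in YAPKO2, 1031 to 1308 FPKM in YAPKO1 and 1286 to 1416 FPKM in sgCON cells in DMSO, and 1325 to 1384 FPKM in parental cells. In trametinib they summed to 799 to 1183 FPKM in YAPKO2, 1221 to 1473 FPKM in YAPKO1 and 1255 to 1414 FPKM in sgCON cells. VIM made up most of these sums, averaging 1495 FPKM in YAPKO2, 967 FPKM in YAPKO1 and 1176 FPKM in sgCON cells in DMSO. In the same order SNAI2 averaged 2.97, 2.75 and 1.57 FPKM and FN1 55.6, 64.7 and 77.6 FPKM. PRRX1, a low member of that list, averaged 0.262 ± 0.125 FPKM in YAPKO2, 11.1 ± 2.11 FPKM in YAPKO1 and 0.359 ± 0.171 FPKM in sgCON cells in DMSO (SD, n = 3 each). KRT18, a keratin, averaged 0.673 ± 0.0967, 2.16 ± 0.872 and 14.9 ± 0.696 FPKM in the same groups, while EPCAM and CDH1 stayed at or near 0. The other keratins listed were lower, with KRT8 at 0.572, 0.638 and 1.87 FPKM in those groups. KRT19 went the other way from KRT18, at 0.682 ± 0.231, 0.833 ± 0.313 and 0.522 ± 0.255 FPKM. The 4 endothelial and blood markers found summed to at most 0.776 FPKM. The part of these markers in the results below was not tested, and in bulk RNA fewer cells of a type and less RNA per cell cannot be told apart.

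NLF cells expressed most members of the family. Of the 69 genes, 51 passed the filter, 28 ligands and 23 receptors, and these are the members tested. All 8 ephrins, all 9 plexins and both neuropilins passed, as did 16 of 20 semaphorins, 7 of 14 Eph receptors, 3 of 4 ROBO receptors, 2 of 3 slits, 2 of 4 netrins and 2 of the 5 UNC5 and DCC receptors. By the mean over the 21 libraries, SLIT3 had the highest level among ligands, at 50.2 FPKM, and the highest member was SEMA4C among semaphorins at 25.3 FPKM, EFNA4 among ephrins at 24.8 FPKM and NTN3 among netrins at 4.44 FPKM. By the same mean the highest receptor was EPHB4, which binds ephrin B2, at 48.5 FPKM, with UNC5C at 44.9 FPKM, PLXNB2 at 34.2 FPKM, NRP1 at 28.9 FPKM and ROBO1 at 17.3 FPKM leading their classes. The order changed with the group. In sgCON cells in DMSO SEMA3A averaged 23.6 FPKM and SLIT3 21.6 FPKM, and in parental cells SEMA3D averaged 36.2 FPKM and SLIT3 26.4 FPKM. NRP1 was the highest receptor in parental cells, at 88.7 FPKM, where EPHB4 averaged 29 FPKM and UNC5C 61.0 FPKM. The 18 members below the filter were DCC, EPHA1, EPHA3, EPHA4, EPHA6, EPHA10, EPHB1, EPHB6, NTN1, NTN5, ROBO4, SEMA3E, SEMA3G, SEMA5A, SEMA5B, SLIT1, UNC5A and UNC5D. The highest value any of these reached in a library was 1.48 FPKM, for SEMA5B, and DCC, EPHA3, NTN5, SEMA3E, SLIT1 and UNC5D stayed below 0.1 FPKM throughout. NTN1, the best-known DCC ligand, reached at most 0.216 FPKM. Of the 51 tested members, EFNA5, PLXNB1, PLXNB3, SEMA4G and SEMA6B were called in none of the 13 comparisons, with means of 10.8, 11, 1.11, 2.08 and 2.83 FPKM. Of the tested members, 39 reached 1 FPKM before scaling in at least 1 library of every group, and 12 did not. Of these 12, 6 reached it in knockout libraries alone: SEMA3F in 12 libraries, EFNA1 in 5 (all with trametinib), EPHA8 in 4 (all of YAPKO2), SEMA4A in 4, and EFNB2 and SEMA7A in 3. SEMA3C in 7 and PLXNC1 in 8 reached it in sgCON and parental libraries alone. ROBO2 in 8, NTN4 in 9, PLXNB3 in 10 and SEMA3B in 11 did so in some groups of both kinds. A member that passed only through the groups where it is high had to differ, so the counts below describe the tested members and support nothing about all 69.

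**Figure D1:**
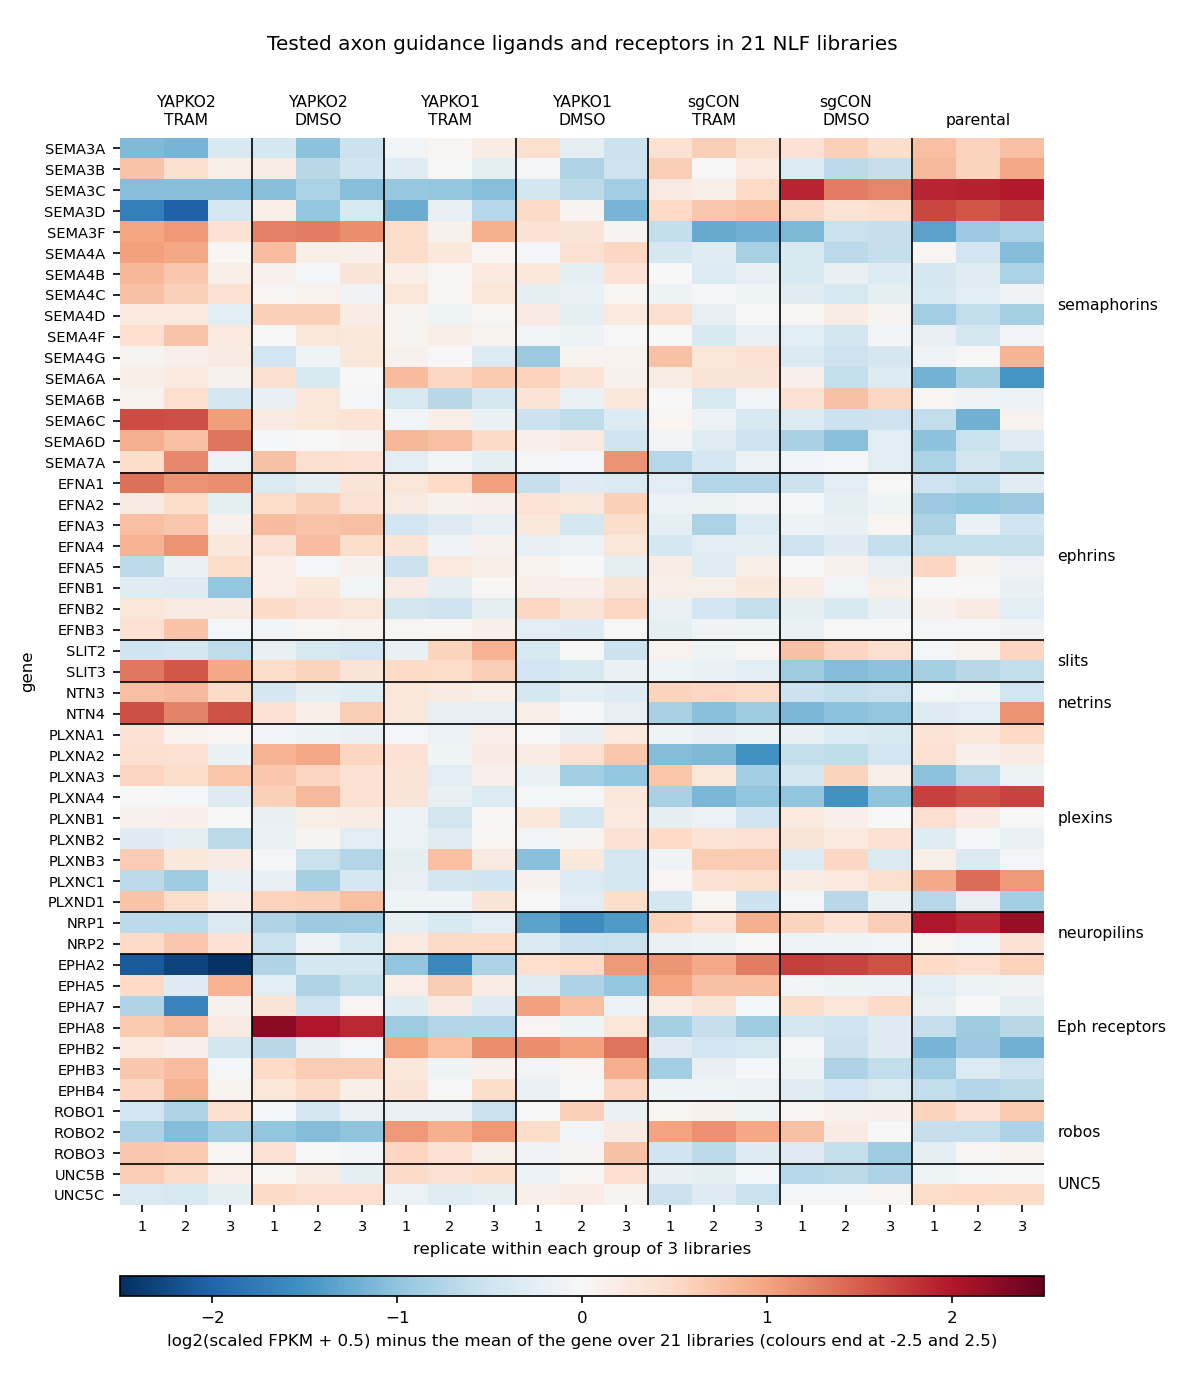
Level of the 51 tested members in each of the 21 libraries, as log2(FPKM + 0.5) minus the gene's mean over the libraries (color), with genes grouped by class in rows and libraries in columns from YAPKO2 to parental. SEMA3C and NRP1 are lowest in the knockout columns and highest in the parental ones, while SEMA3F and SLIT3 have their highest values in YAPKO2 columns.

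Promoter sequences are shown for the members called in the same direction in both knockout lines against sgCON in DMSO with the largest smaller change, so that the letters around their starts can be set beside those changes. By that rule these were SEMA3C, NRP1, PLXNA4 and EPHA2, of which NRP1 has no entry in the table. Each sequence runs from 250 bases before to 50 bases after a RefSeq transcription start (GRCh38.p14), and capitals mark the TEAD core GGAATG or the ETS core GGAAGT, read on either strand.
SEMA3C, chr7:80922340-80922639, minus strand: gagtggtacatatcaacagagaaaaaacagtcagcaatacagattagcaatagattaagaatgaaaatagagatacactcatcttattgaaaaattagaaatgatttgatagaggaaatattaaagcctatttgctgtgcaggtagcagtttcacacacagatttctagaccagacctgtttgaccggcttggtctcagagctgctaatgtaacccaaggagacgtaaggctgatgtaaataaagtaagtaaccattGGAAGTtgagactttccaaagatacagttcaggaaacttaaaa
SEMA3C, chr7:80919002-80919301, minus strand: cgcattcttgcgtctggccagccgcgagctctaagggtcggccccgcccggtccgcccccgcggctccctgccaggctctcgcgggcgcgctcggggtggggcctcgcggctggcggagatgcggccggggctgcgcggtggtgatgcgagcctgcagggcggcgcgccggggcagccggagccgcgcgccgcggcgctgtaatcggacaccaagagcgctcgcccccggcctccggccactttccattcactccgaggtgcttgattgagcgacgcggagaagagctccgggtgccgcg
PLXNA4, chr7:132576421-132576720, minus strand: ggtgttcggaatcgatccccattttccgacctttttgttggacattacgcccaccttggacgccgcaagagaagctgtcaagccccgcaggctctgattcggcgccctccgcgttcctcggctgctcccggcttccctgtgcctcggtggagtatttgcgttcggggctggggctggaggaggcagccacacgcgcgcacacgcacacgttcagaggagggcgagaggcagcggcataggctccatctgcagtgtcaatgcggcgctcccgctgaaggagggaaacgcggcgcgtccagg
EPHA2, chr1:16156020-16156319, minus strand: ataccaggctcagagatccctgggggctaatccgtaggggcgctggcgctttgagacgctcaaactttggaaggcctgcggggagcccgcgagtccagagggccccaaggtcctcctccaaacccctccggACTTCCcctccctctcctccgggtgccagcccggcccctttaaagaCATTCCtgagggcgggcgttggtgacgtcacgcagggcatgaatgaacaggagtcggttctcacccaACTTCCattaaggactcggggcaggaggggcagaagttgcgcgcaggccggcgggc
SEMA3C has a start in each of 2 windows. The upstream one holds an ETS core whose first base lies 7 bases after the start, and the other holds none of the 4 motifs searched. PLXNA4 holds none of them either. EPHA2 holds 1 TEAD core, 73 bases before the start, and ETS cores 119 and 6 bases before it. The windows also differ in base composition, with 36.0% GC in the upstream SEMA3C window, 75.7% in the other and 64.3% in both PLXNA4 and EPHA2.

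The shares of promoters with a TEAD or ETS core were close to those over all promoters, and the shares with an AP-1 motif or E-box were below them. The table held 71 promoters for 44 of the 51 tested members and 35116 promoters of the same length in all. A TEAD core was in 10 of the 71 (14.1%), against 14% of all promoters. An ETS core was in 17 (23.9%), against 22.8%. The AP-1 motif TGANTCA was in 1 (1.41%), against 7.71%, and the E-box CACGTG in 3 (4.23%), against 7.26%. All were matched on both strands, matches of different motifs could overlap, and no test was made.

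The first comparison asks what differs between the YAP1 knockout lines and the control-guide line without the drug. In both knockout lines the secreted semaphorin gene SEMA3C, its coreceptor gene NRP1 and the Eph receptor gene EPHA2 were lower than in sgCON cells, and the plexin genes PLXNA2 and PLXNA4 and the ligand gene SLIT3 were higher. In YAPKO2, 21 of the 51 tested members rose and 8 fell, which is 56.9%, beside 26.9% of all genes tested (14% higher and 13.0% lower). In YAPKO1, 10 rose and 4 fell, which is 27.5%, beside 11.9% of all genes (6.13% higher and 5.77% lower). The median log2 change of the tested members was 0.33 in YAPKO2, against 0.01 over all genes, and 0.18 in YAPKO1, against -0.00. Both comparisons use the same sgCON libraries, so the lines' values are given side by side and their likeness is not counted as a result.

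Most ligands that passed the test were raised, while SEMA3C and SLIT2 fell in both lines and SEMA3A in YAPKO2. In YAPKO2, 12 of 28 tested ligands rose and 3 fell, and in YAPKO1 5 rose and 2 fell. SEMA3C, a secreted guidance cue for neural crest cells, had 0, 0.103 and 0 FPKM in YAPKO2 cells and 0.259, 0.162 and 0.0709 FPKM in YAPKO1 cells, against 3.42, 2.06 and 1.95 FPKM in sgCON cells. Every knockout library was far below every sgCON library. The log2 change was -2.45 ± 0.20 in YAPKO2 (limma, adjusted p = 1.2e-07) and -2.14 ± 0.20 in YAPKO1 (adjusted p = 1.64e-06). SEMA3F, a secreted ligand of NRP2, went the opposite way, with 4.61, 4.70 and 4.31 FPKM in YAPKO2 cells and 2.24, 2.19 and 1.76 FPKM in YAPKO1 cells, against 0.491, 0.967 and 0.947 FPKM in sgCON cells. The 3 sets did not overlap, and YAPKO2 was highest. The log2 change was 1.97 ± 0.25 in YAPKO2 (adjusted p = 1.71e-05) and 1.00 ± 0.25 in YAPKO1 (adjusted p = 0.0137, and 0.0753 without sgCON DMSO replicate 1). SEMA3F entered the test through knockout libraries alone, and in a fit with no filter the adjusted p was 7.00e-05 in YAPKO2 and 0.0316 in YAPKO1. SEMA3A, the NRP1 ligand that collapses growth cones, had 12.4, 8.11 and 11.5 FPKM in YAPKO2 cells and 22.4, 14.4 and 11.5 FPKM in YAPKO1 cells, against 21.9, 25.7 and 23.2 FPKM in sgCON cells. It fell by 1.13 ± 0.22 on the log2 scale in YAPKO2 (adjusted p = 0.00118), and by 0.66 with a correction for GC content. One YAPKO1 library lay among the sgCON values, and the uncalled log2 change there was -0.59.

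SLIT3, a secreted ROBO ligand, differed between all 3 lines. It had 59.8, 64.5 and 54.8 FPKM in YAPKO2 cells and 31.3, 32.9 and 39.0 FPKM in YAPKO1 cells, against 23.4, 20.3 and 21.2 FPKM in sgCON cells. No library of one line overlapped another line, and the log2 change was 1.44 ± 0.13 in YAPKO2 (adjusted p = 2.38e-07) and 0.65 ± 0.13 in YAPKO1 (adjusted p = 0.00232). SLIT2 went the other way, with 1.27, 1.04 and 0.947 FPKM in YAPKO2 cells and 1.06, 1.55 and 0.891 FPKM in YAPKO1 cells, against 2.88, 2.44 and 2.18 FPKM in sgCON cells. Its log2 change was -0.92 ± 0.23 in YAPKO2 (adjusted p = 0.00781) and -0.86 ± 0.23 in YAPKO1 (adjusted p = 0.0215). After a correction for GC content SLIT2 was called in neither line (adjusted p = 0.0785 in YAPKO2 and 0.079 in YAPKO1), and in YAPKO1 the call was also lost without any of 4 libraries, sgCON replicates 1 and 2 and YAPKO1 replicates 1 and 3 (highest adjusted p = 0.0972, without YAPKO1 replicate 3). NTN4, a netrin related to laminins of the basement membrane, had 1.37, 1.10 and 1.69 FPKM in YAPKO2 cells and 1.08, 0.879 and 0.739 FPKM in YAPKO1 cells, against 0.147, 0.202 and 0.239 FPKM in sgCON cells. All knockout values were above all sgCON values. The log2 change was 1.43 ± 0.30 in YAPKO2 (adjusted p = 0.0019) and 1.00 ± 0.30 in YAPKO1 (adjusted p = 0.0345). Leaving out any 1 of the 6 libraries ended the YAPKO1 call on NTN4, with an adjusted p up to 0.103 without sgCON replicate 1.

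The ephrins called in DMSO were higher in the knockout lines. Of the 8 ephrins, 4 rose in YAPKO2, beside 14% of all genes, and 2 in YAPKO1, beside 6.13%. None fell in either line, beside 13.0% of all genes in YAPKO2 and 5.77% in YAPKO1. With so few genes these counts describe the named members alone. Under trametinib EFNB1 was called lower in YAPKO2 than in sgCON (log2 change -0.72). EFNA4, an A-type ephrin, had 30.1, 40.0 and 31.5 FPKM in YAPKO2 cells, against 15.9, 18.5 and 15.1 FPKM in sgCON cells, which do not overlap (log2 change 1.01 ± 0.19, adjusted p = 0.000682). In YAPKO1 its values of 20.0, 20.9 and 28.7 FPKM were also above those of sgCON, with an uncalled log2 change of 0.47. EFNA3 rose by 0.84 in YAPKO2 (adjusted p = 0.0113), and EFNA2 rose by 0.61 in YAPKO2 and 0.53 in YAPKO1, all on the log2 scale. With a correction for GC content the EFNA2 changes were 0.34 in YAPKO2 and 0.35 in YAPKO1, both still called. EFNB2, the ligand of EPHB4, had 1.03, 0.913 and 0.853 FPKM in YAPKO2 cells and 1.08, 0.879 and 1.06 FPKM in YAPKO1 cells, against 0.442, 0.343 and 0.468 FPKM in sgCON cells, with log2 changes of 0.64 in YAPKO2 and 0.72 in YAPKO1. EFNA2 in YAPKO1 lost its call without sgCON DMSO replicate 2 or YAPKO1 DMSO replicate 3 (adjusted p up to 0.0786). So did EFNB2 in YAPKO1 without the same libraries (up to 0.0694) and EFNB2 in YAPKO2 without sgCON DMSO replicate 2 or YAPKO2 DMSO replicate 1 or 2 (up to 0.064). Among the remaining semaphorins in YAPKO2, SEMA4A, SEMA6C, SEMA6D, SEMA4F and SEMA4C were called higher by 0.33 to 0.90 on the log2 scale, and each of these 5 calls was lost without 1 of at least 4 of the 6 libraries, with adjusted p up to 0.155 (SEMA4A, without YAPKO2 DMSO replicate 1).

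**Figure D2:**
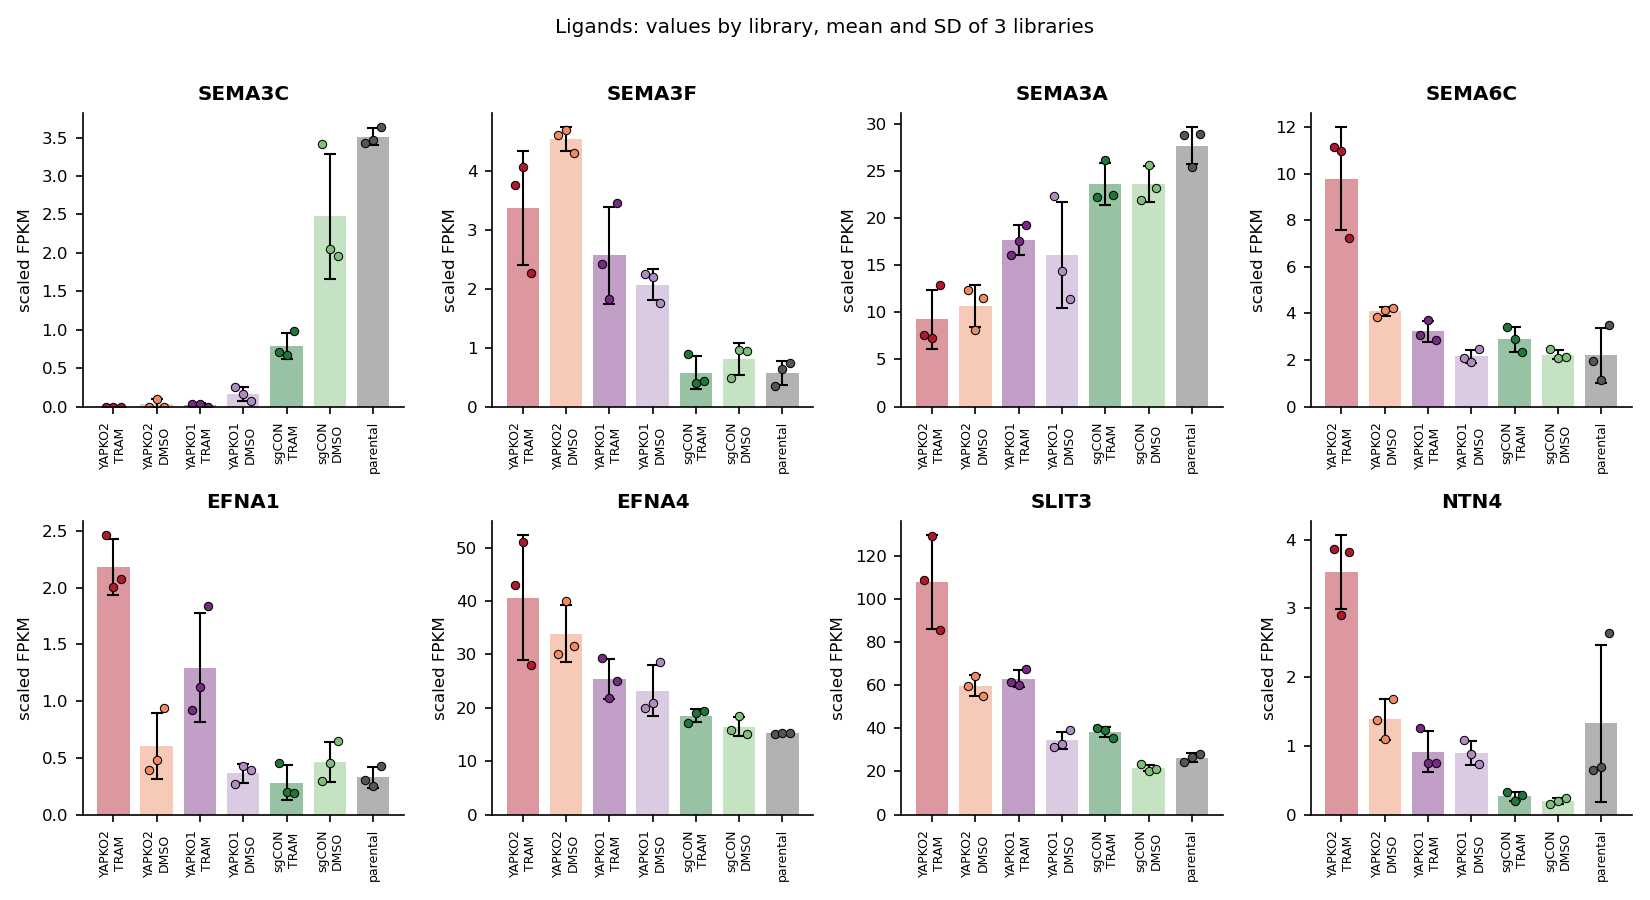
FPKM of 8 ligand genes in each library (points), by group from YAPKO2 with trametinib to parental. Bars show the mean of the 3 libraries and error bars the SD. Each panel has its own axis from 0. SEMA3C is near 0 in all knockout libraries, SLIT3 is highest in YAPKO2 cells with trametinib, at 85.7 to 129 FPKM, and EFNA1 is highest there too, at 2.00 to 2.46 FPKM.

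Among receptors, a plexin pair rose and NRP1 and EPHA2 fell in both lines. In YAPKO2, 9 of 23 tested receptors rose and 5 fell, and in YAPKO1 5 rose and 2 fell. NRP1, the SEMA3A coreceptor that also binds VEGF, had 12.4, 11 and 11.2 FPKM in YAPKO2 cells and 8.03, 6.80 and 7.63 FPKM in YAPKO1 cells, against 31.3, 27.5 and 32.6 FPKM in sgCON cells. The lowest sgCON library had more than any knockout library by a wide margin, and YAPKO1 was the lowest line. The log2 change was -1.36 ± 0.13 in YAPKO2 (adjusted p = 4.52e-07) and -1.95 ± 0.13 in YAPKO1 (adjusted p = 1.09e-08). NRP2, the SEMA3F coreceptor, averaged 8.70 ± 1.37 FPKM in YAPKO2, 7.86 ± 0.611 FPKM in YAPKO1 and 10.5 ± 0.107 FPKM in sgCON cells (SD, n = 3 each), with uncalled log2 changes of -0.27 in YAPKO2 and -0.40 in YAPKO1. PLXNA2, a receptor for SEMA6A and, with neuropilins, for class 3 semaphorins, had 22.8, 24.3 and 17.9 FPKM in YAPKO2 cells and 14, 16.0 and 19.8 FPKM in YAPKO1 cells, against 7.90, 7.68 and 8.62 FPKM in sgCON cells. Its log2 change was 1.36 ± 0.18 in YAPKO2 (adjusted p = 2.64e-05) and 0.99 ± 0.18 in YAPKO1 (adjusted p = 0.00129). PLXNA4, which with NRP1 forms a SEMA3A receptor, had 4.16, 4.90 and 3.48 FPKM in YAPKO2 cells and 2.52, 2.45 and 3.23 FPKM in YAPKO1 cells, against 1.04, 0.574 and 1.03 FPKM in sgCON cells. No knockout library overlapped sgCON for either plexin, and the PLXNA4 log2 change was 1.77 ± 0.19 in YAPKO2 (adjusted p = 2.97e-06) and 1.24 ± 0.19 in YAPKO1 (adjusted p = 0.000292). PLXND1 also rose in YAPKO2, by 0.93 on the log2 scale (adjusted p = 0.00593), while PLXNB2 and PLXNC1 fell by 0.44 and 0.77 there, as log2 changes. The PLXNB2 call was lost without sgCON DMSO replicate 1 or 3 or YAPKO2 DMSO replicate 1 or 3 (adjusted p up to 0.095), and the PLXNC1 call without sgCON DMSO replicate 3 or YAPKO2 DMSO replicate 2 (up to 0.11).

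The Eph receptors split by line. EPHA2, a receptor for A-type ephrins that is raised in many carcinomas, had 3.65, 4.68 and 4.68 FPKM in YAPKO2 cells and 8.84, 9.37 and 14.3 FPKM in YAPKO1 cells, against 22.7, 22.1 and 20.6 FPKM in sgCON cells. Each line was separate from the others, and the log2 change was -2.21 ± 0.20 in YAPKO2 (adjusted p = 2.63e-07) and -1.01 ± 0.20 in YAPKO1 (adjusted p = 0.00242). EPHA8 had 3.90, 3.25 and 2.90 FPKM in YAPKO2 cells and 0.460, 0.354 and 0.638 FPKM in YAPKO1 cells, against 0.186, 0.151 and 0.239 FPKM in sgCON cells. It rose in YAPKO2, with a log2 change of 2.47 ± 0.21 (adjusted p = 1.35e-07), and its uncalled log2 change in YAPKO1 was 0.50. EPHA8 entered the test through YAPKO2 libraries alone, so its calls here and below describe lines that the filter already set apart. The YAPKO2 call was also made in a fit with no filter. EPHB2, a receptor for B-type ephrins, showed the reverse order, with 2.78, 4.17 and 4.63 FPKM in YAPKO2 cells and 11.4, 10.3 and 13.2 FPKM in YAPKO1 cells, against 4.63, 3.15 and 3.74 FPKM in sgCON cells. YAPKO1 stood above all other libraries in DMSO (log2 change 1.49 ± 0.20, adjusted p = 5.74e-05) and YAPKO2 overlapped sgCON (log2 change -0.01). EPHB3 and EPHB4 also rose in YAPKO2, by 1.09 and 0.68 on the log2 scale. The EPHB4 call was lost without YAPKO2 DMSO replicate 2 (adjusted p = 0.0564).

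Among ROBO and UNC5 receptors, ROBO2 fell in YAPKO2 and UNC5B and ROBO3 rose in both lines. ROBO2 had 0.0800, 0.0411 and 0.0728 FPKM in YAPKO2 cells and 1.07, 0.596 and 0.820 FPKM in YAPKO1 cells, against 1.41, 0.816 and 0.658 FPKM in sgCON cells. YAPKO2 alone was near 0, with a log2 change of -1.34 ± 0.21 (adjusted p = 0.000135). UNC5B, which can promote cell death when netrin is absent, rose in both lines, by 0.72 ± 0.14 in YAPKO2 (adjusted p = 0.00113) and 0.83 ± 0.14 in YAPKO1 (adjusted p = 0.000749). UNC5C, a related netrin receptor, rose by 0.44 ± 0.08 in YAPKO2 (adjusted p = 0.000623). ROBO3, known from commissural axons, was called higher by 0.70 in YAPKO2 and 0.84 in YAPKO1, and both calls were lost without sgCON DMSO replicate 2 or 3, among other libraries (adjusted p up to 0.112 in YAPKO2 without sgCON DMSO replicate 3, and up to 0.109 in YAPKO1 without YAPKO1 DMSO replicate 3).

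**Figure D3:**
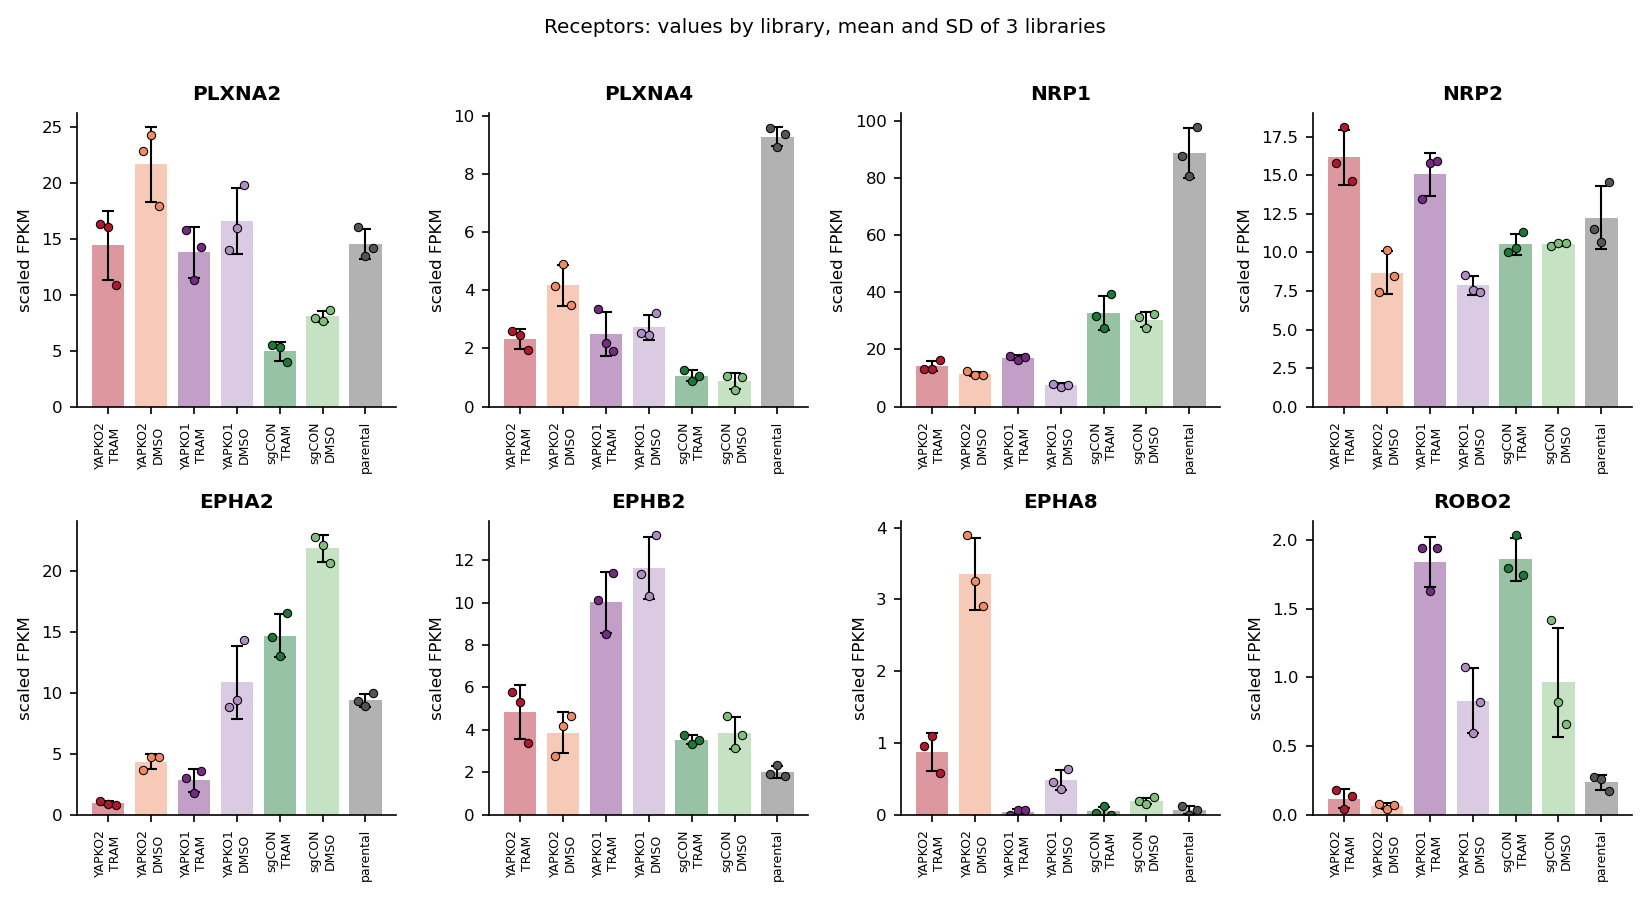
FPKM of 8 receptor genes in each library (points), by group from YAPKO2 with trametinib to parental. Bars show the mean of the 3 libraries and error bars the SD. Each panel has its own axis from 0. EPHA2 is lowest in YAPKO2 with trametinib and highest in sgCON with DMSO, and NRP1 is highest in the parental libraries at 80.6 to 97.8 FPKM.

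Members that rose had a higher median GC content in their transcripts than members that fell, and the libraries differed in GC trend as well. The GC trend defined above had a median of 0.15 in YAPKO2, -0.23 in YAPKO1 and -0.39 in sgCON cells in DMSO. The 21 that rose in YAPKO2 had a median GC content of 59.4% and the 8 that fell 45.4%, while the 10 that rose in YAPKO1 had 56.7% and the 4 that fell 46.1%. Tested members not called had medians of 58.7% in YAPKO2 and 59.2% in YAPKO1, so it was the members that fell that stood apart. With a correction of each library for GC content, 17 of the 21 and 6 of the 8 were still called in YAPKO2, and all 10 and 3 of the 4 in YAPKO1. The calls that ended were those on SLIT2, SEMA4A, SEMA4C, SEMA4F, SEMA6C and PLXNC1 in YAPKO2 and on SLIT2 in YAPKO1. Among calls that held, the corrected log2 change in YAPKO2 was 0.45 for EPHB4, 0.46 for ROBO3 and -0.69 for PLXNB2. The median log2 change of the tested members was then 0.17 in YAPKO2 and 0.07 in YAPKO1. Counts in YAPKO1 rested in part on single libraries: 9 members were called without sgCON DMSO replicate 2, and 10 without YAPKO1 DMSO replicate 3. Under every alternative tried, 18 of the 29 YAPKO2 calls held, among them SEMA3C, SEMA3F, SEMA3A, SLIT3, NTN4, EFNA4, PLXNA2, PLXNA4, NRP1, EPHA2, EPHA8 and ROBO2. In YAPKO1 7 of the 14 did, namely SEMA3C, SLIT3, PLXNA2, PLXNA4, NRP1, EPHA2 and EPHB2.

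**Figure D4:**
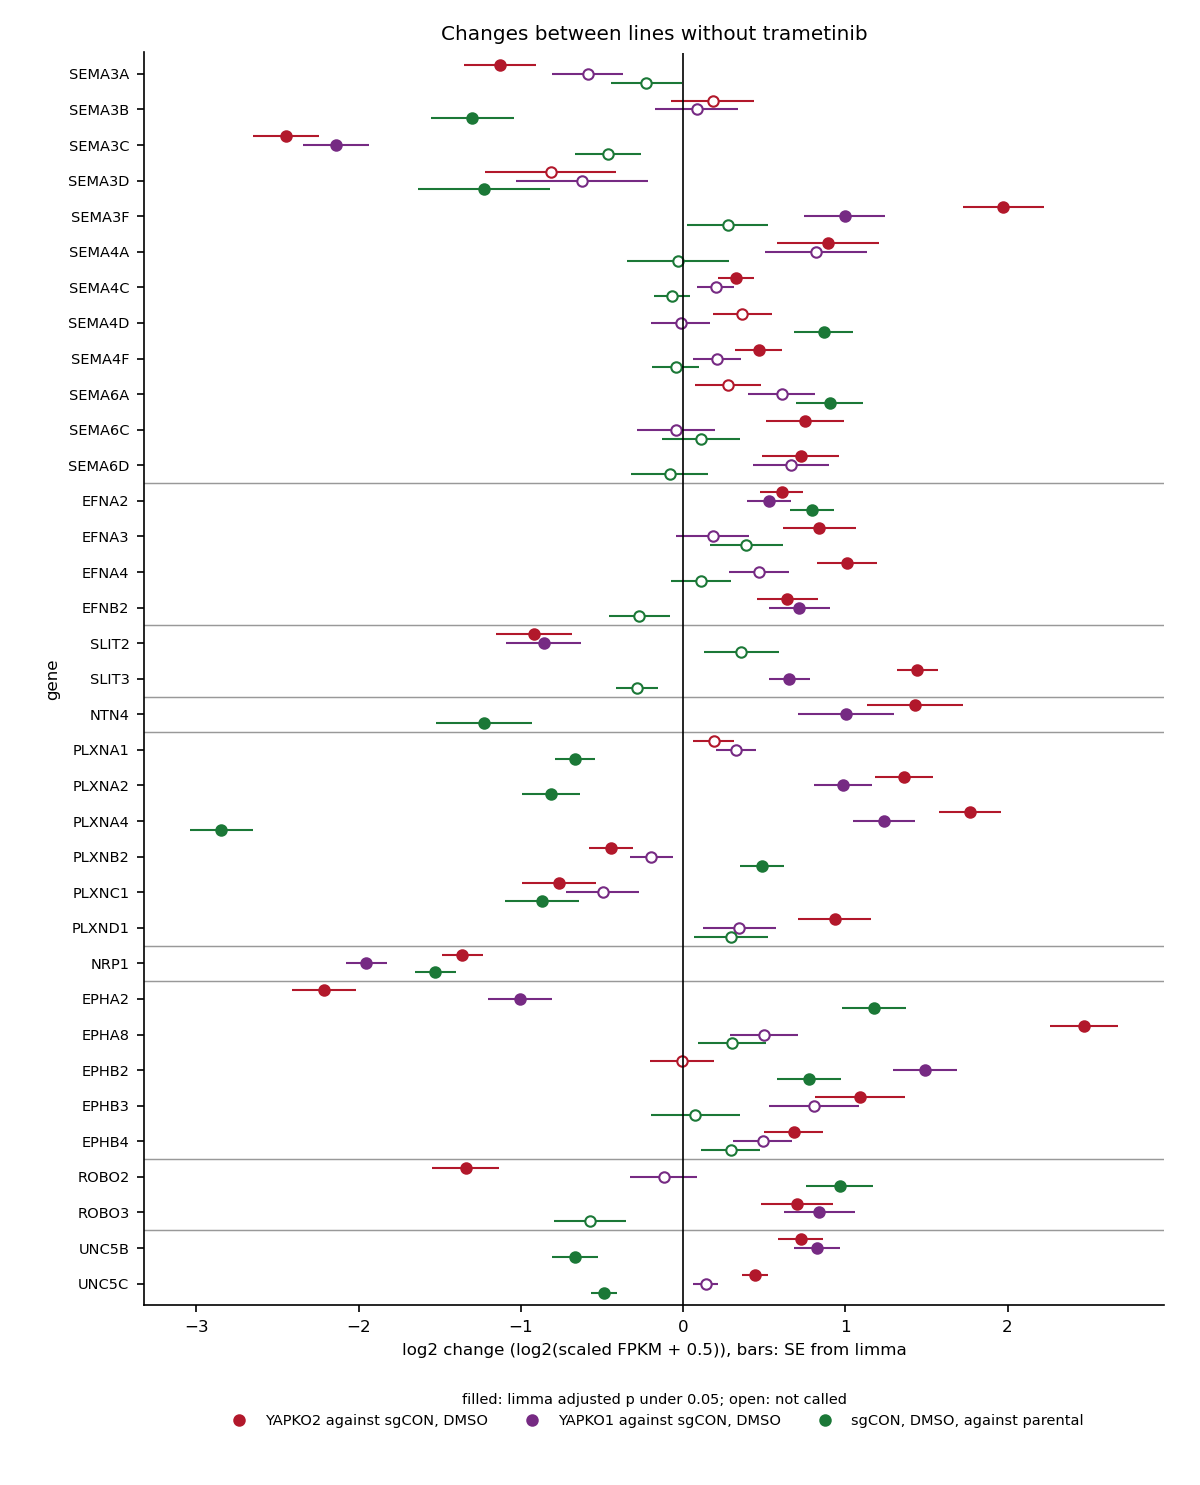
Log2 change ± SE (limma) of each member called in any of 3 comparisons in DMSO: YAPKO2 against sgCON, YAPKO1 against sgCON and sgCON against parental cells. Filled points have an adjusted p under 0.05. SEMA3C lies at -2.45 and -2.14 for the knockout lines, and PLXNA4 lies at 1.77 and 1.24 for them and at -2.85 for sgCON against parental cells.

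The knockout lines were also compared directly. In DMSO, 6 members were higher and 3 lower in YAPKO2 than in YAPKO1, which is 17.6% of the tested members, beside 6.93% of all genes (3.71% higher and 3.22% lower). The largest differences were in Eph and ROBO receptors, EPHA8 (1.97 ± 0.21, adjusted p = 6.93e-06), EPHB2 (-1.5 ± 0.20, adjusted p = 8.07e-05), ROBO2 (-1.22 ± 0.21, adjusted p = 0.000883) and EPHA2 (-1.21 ± 0.20, adjusted p = 0.000699), all log2 changes of YAPKO2 over YAPKO1 with no overlap of the libraries. SLIT3 was higher in YAPKO2 by 0.79 ± 0.13 (adjusted p = 0.000627) and NRP1 by 0.59 ± 0.13 (adjusted p = 0.00637). PLXNA3, a plexin for class 3 semaphorins, had 6.09, 5.53 and 4.86 FPKM in YAPKO2 cells, against 3.21, 1.76 and 1.61 FPKM in YAPKO1 cells (log2 change 1.2 ± 0.34, adjusted p = 0.0427). The calls on PLXNA3, SEMA3F (0.98) and UNC5C (0.30) were each lost without 1 of 5 of the 6 libraries, with adjusted p up to 0.147 for PLXNA3 without YAPKO1 DMSO replicate 2, 0.0742 for SEMA3F without YAPKO2 DMSO replicate 2 and 0.0999 for UNC5C without YAPKO2 DMSO replicate 1. The PLXNA3 call also ended with GC correction (adjusted p = 0.0667). YAP1 itself was lower in YAPKO2 than in YAPKO1, with a log2 change of -1.83. EPHA8 and EPHB2 lie 107 kb apart on chromosome 1 (GRCh38) and were each high in a different knockout line.

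With trametinib, the knockout lines were compared with sgCON cells under the same drug. In YAPKO2, 24 members rose and 10 fell, which is 66.7% of those tested, beside 36.1% of all genes (17.6% higher and 18.5% lower). In YAPKO1, 11 rose and 5 fell, which is 31.4%, beside 14.9% (7.77% higher and 7.11% lower). Their median log2 changes were 0.38 in YAPKO2 and 0.14 in YAPKO1, against -0.02 and 0.00 over all genes. With GC correction the members' medians were 0.20 in YAPKO2 and 0.03 in YAPKO1. EPHA2 had the largest change in both, with 1.14, 0.902 and 0.763 FPKM in YAPKO2 cells and 3.01, 1.79 and 3.60 FPKM in YAPKO1 cells, against 14.5, 13.0 and 16.5 FPKM in sgCON cells. The groups were far apart, and the log2 change was -3.40 ± 0.20 in YAPKO2 (adjusted p = 8.93e-10) and -2.24 ± 0.20 in YAPKO1 (adjusted p = 5.55e-07). EFNA1, an A-type ephrin and the main ligand of EPHA2, was higher in both knockout lines under the drug, with 2.46, 2.00 and 2.07 FPKM in YAPKO2 cells and 0.923, 1.12 and 1.84 FPKM in YAPKO1 cells, against 0.458, 0.196 and 0.192 FPKM in sgCON cells. Its log2 change was 1.79 ± 0.24 in YAPKO2 (adjusted p = 2.21e-05) and 1.18 ± 0.24 in YAPKO1 (adjusted p = 0.00289). In DMSO EPHA2 was lower in both knockout lines too, but EFNA1 was called in neither. There EFNA1 averaged 0.603 FPKM in YAPKO2, 0.362 FPKM in YAPKO1 and 0.465 FPKM in sgCON cells. With trametinib SEMA3C was listed at 0 in all 3 YAPKO2 libraries and had 0.0393, 0.0384 and 0 FPKM in YAPKO1 cells, against 0.715, 0.665 and 0.979 FPKM in sgCON cells.

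Further ligands set the knockout lines apart under the drug. NTN4 had 3.87, 2.90 and 3.82 FPKM in YAPKO2 cells, against 0.324, 0.196 and 0.278 FPKM in sgCON cells (log2 change 2.39 ± 0.30, adjusted p = 9.15e-06). SEMA6C, a membrane-bound semaphorin, had 11.2, 11 and 7.23 FPKM in YAPKO2 cells and 3.08, 3.73 and 2.87 FPKM in YAPKO1 cells, against 3.41, 2.92 and 2.34 FPKM in sgCON cells. The YAPKO2 libraries lay above all the others, and the YAPKO1 libraries overlapped sgCON (log2 change in YAPKO2 1.59 ± 0.24, adjusted p = 7.28e-05). SEMA6D, a PLXNA1 ligand, had 7.60, 6.75 and 10.4 FPKM in YAPKO2 cells and 7.16, 6.75 and 5.49 FPKM in YAPKO1 cells, against 3.60, 3.00 and 2.53 FPKM in sgCON cells. It rose by 1.29 ± 0.24 in YAPKO2 (adjusted p = 0.000423) and 0.98 ± 0.24 in YAPKO1 (adjusted p = 0.00957). SEMA3D, a secreted class 3 semaphorin, had 3.08, 2.4 and 8.22 FPKM in YAPKO2 cells and 4.45, 9.72 and 6.64 FPKM in YAPKO1 cells, against 16.1, 18.1 and 19.1 FPKM in sgCON cells. All knockout values were lower, with a log2 change of -2.02 ± 0.40 in YAPKO2 (adjusted p = 0.000938) and -1.36 ± 0.40 in YAPKO1 (adjusted p = 0.0316). The YAPKO1 call on SEMA3D was lost without any 1 of 5 libraries, with adjusted p up to 0.14 without YAPKO1 trametinib replicate 1, and held without YAPKO1 trametinib replicate 2.

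SEMA3F, SLIT3 and PLXNA2 were higher in both knockout lines under trametinib too. SEMA3F had 3.77, 4.06 and 2.27 FPKM in YAPKO2 cells and 2.41, 1.82 and 3.45 FPKM in YAPKO1 cells, against 0.896, 0.401 and 0.432 FPKM in sgCON cells (log2 changes of 1.84 ± 0.25, adjusted p = 2.28e-05, and 1.5 ± 0.25, adjusted p = 0.000474). PLXNA2 had 16.4, 16.0 and 10.8 FPKM in YAPKO2 cells and 15.8, 11.3 and 14.2 FPKM in YAPKO1 cells, against 5.50, 5.34 and 3.96 FPKM in sgCON cells (1.45 ± 0.18, adjusted p = 8.78e-06, and 1.39 ± 0.18, adjusted p = 3.51e-05). Every knockout library was above every sgCON library for both genes. ROBO2 had 0.177, 0.0396 and 0.132 FPKM in YAPKO2 cells and 1.94, 1.63 and 1.94 FPKM in YAPKO1 cells, against 1.79, 2.04 and 1.75 FPKM in sgCON cells, and was called in YAPKO2 (-1.94 ± 0.21, adjusted p = 1.63e-06). EPHB2 had 5.80, 5.32 and 3.39 FPKM in YAPKO2 cells and 10.1, 8.51 and 11.4 FPKM in YAPKO1 cells, against 3.75, 3.32 and 3.52 FPKM in sgCON cells, and was called in YAPKO1 (1.38 ± 0.20, adjusted p = 0.000114). SLIT3 rose by 1.46 ± 0.13 in YAPKO2 (adjusted p = 1.48e-07) and 0.71 ± 0.13 in YAPKO1 (adjusted p = 0.00104), and NRP1 fell by 1.18 and 0.91. SEMA3C fell by 1.28 ± 0.20 in YAPKO1 (adjusted p = 0.000344). In YAPKO2 SEMA3C fell by 1.36 (adjusted p = 7.2e-05), a value that depends on the pseudocount because those libraries are listed at 0. SEMA3A fell there by 1.35, and by 0.88 with GC correction, and EPHA8 rose by 1.32. The smaller calls in YAPKO2 lay between 0.49 and 1.29 in size. EPHA7 fell by 0.93, though its groups overlapped, and it did not pass without any of 5 libraries (adjusted p up to 0.284, without YAPKO2 trametinib replicate 2). Leaving out that library also ended the calls on SEMA7A (0.224), EFNB3 (0.1) and EPHB4 (0.0862), while EPHB3 was lost without sgCON trametinib replicate 1 (0.139), PLXND1 without YAPKO2 trametinib replicate 1 (0.0696) and EFNB2 without sgCON trametinib replicate 3 (0.0504). In YAPKO1, PLXNA4, ROBO3, UNC5B, NRP2 and UNC5C rose by 0.24 to 0.91 and PLXNB2 fell by 0.54. Of these UNC5C (up to 0.188) and ROBO3 (up to 0.0709) were lost without YAPKO1 trametinib replicate 1, NRP2 without YAPKO1 trametinib replicate 3 (0.0656) and PLXNB2 without sgCON trametinib replicate 1 (0.0517). Without YAPKO2 trametinib replicate 3, the library with the lowest GC trend of its group, 39 members were called in YAPKO2. A fit to the libraries of the 2 groups alone called 20 members there, and after GC correction 20 of the 24 that rose and all 10 that fell were still called. The calls on EFNB3, EPHB3, PLXND1 and SEMA7A ended, and among those that held the corrected log2 change was 0.29 for UNC5B, 0.32 for EPHB4, 0.36 for SEMA4F, 0.37 for SEMA4C, 0.43 for SEMA4B, -0.43 for EPHA7 and -0.57 for PLXNC1.

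The next comparisons ask how each line responded to trametinib. In YAPKO2 11 members rose and 6 fell, which is 33.3%, beside 19.9% of all genes (8.55% higher and 11.4% lower). In YAPKO1 7 rose and 4 fell, which is 21.6%, beside 7.82% (3.97% higher and 3.85% lower), and in sgCON 4 rose and 3 fell, which is 13.7%, beside 5.17% (2.26% higher and 2.91% lower). The median log2 change of the tested members was 0.03 in YAPKO2, 0.01 in YAPKO1 and 0.04 in sgCON, against -0.01, -0.01 and -0.00 over all genes. These 3 responses share no library. In all 3 lines SLIT3, NTN3 and EPHA5 rose and UNC5C fell, which is 7.84% of the tested members, beside 2.09% of all genes.

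SLIT3 had 109, 129 and 85.7 FPKM with trametinib, against 59.8, 64.5 and 54.8 FPKM with DMSO in YAPKO2 cells. It had 61.4, 60.0 and 67.4 FPKM, against 31.3, 32.9 and 39.0 FPKM in YAPKO1 cells, and 40.3, 39.0 and 35.6 FPKM, against 23.4, 20.3 and 21.2 FPKM in sgCON cells. The log2 changes were 0.83 ± 0.13 in YAPKO2 (adjusted p = 0.000165), 0.87 ± 0.13 in YAPKO1 (adjusted p = 0.000285) and 0.81 ± 0.13 in sgCON (adjusted p = 0.000701). The groups did not overlap in any line, and the response differed from that of sgCON by 0.02 in YAPKO2 and 0.05 in YAPKO1, which did not pass the test. NTN3, a netrin, had 7.36, 7.78 and 6.05 FPKM with trametinib, against 2.99, 3.47 and 3.33 FPKM with DMSO in YAPKO2 cells, and 6.39, 6.20 and 6.06 FPKM, against 2.74, 2.61 and 2.70 FPKM in sgCON cells. In YAPKO1 the values were 5.31, 4.96 and 4.70 FPKM with trametinib, against 2.95, 3.46 and 3.25 FPKM with DMSO. The groups were again separate in each line, and the log2 changes were 1.00 ± 0.13 in YAPKO2 (adjusted p = 2.82e-05), 0.56 ± 0.13 in YAPKO1 (adjusted p = 0.0112) and 1.08 ± 0.13 in sgCON (adjusted p = 4.85e-05). UNC5C had 33.9, 33.1 and 37.0 FPKM with trametinib, against 60.9, 58.2 and 58.3 FPKM with DMSO in YAPKO2 cells. It had 39.5, 35 and 36.7 FPKM, against 47.7, 49.9 and 46.0 FPKM in YAPKO1 cells, and 29.9, 34.6 and 29.4 FPKM, against 42.4, 42.7 and 45.2 FPKM in sgCON cells. Trametinib libraries were the lower ones in all 3 lines. Its log2 change was -0.76 ± 0.08 in YAPKO2 (adjusted p = 3.72e-06), -0.36 ± 0.08 in YAPKO1 (adjusted p = 0.00845) and -0.47 ± 0.08 in sgCON (adjusted p = 0.0015). EPHA5, an ephrin A receptor of the nervous system, had 4.83, 2.51 and 6.41 FPKM with trametinib, against 2.62, 1.73 and 2.00 FPKM with DMSO in YAPKO2 cells, where the groups overlapped. It had 3.72, 5.36 and 3.78 FPKM, against 2.54, 1.70 and 1.43 FPKM in YAPKO1 cells, and 7.02, 5.73 and 5.83 FPKM, against 3.11, 2.96 and 2.91 FPKM in sgCON cells. It rose by 0.89 in YAPKO2, by 1.01 in YAPKO1 and by 0.93 in sgCON. In sgCON its call ended without any 1 of the 6 libraries (adjusted p up to 0.13 without sgCON trametinib replicate 1), and it was lost in YAPKO1 without YAPKO1 DMSO replicate 2 or trametinib replicate 2 (up to 0.0718), and in YAPKO2 without YAPKO2 DMSO replicate 2 or trametinib replicate 1 or 3 (up to 0.0633). The NTN3 call in YAPKO1 was lost without YAPKO1 DMSO replicate 1 or trametinib replicate 1 (up to 0.0523).

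EPHA2 and EPHA8 were called lower with trametinib in the knockout lines, and their sgCON values were lower too. EPHA2 had 1.14, 0.902 and 0.763 FPKM with trametinib, against 3.65, 4.68 and 4.68 FPKM with DMSO in YAPKO2 cells, and 3.01, 1.79 and 3.60 FPKM, against 8.84, 9.37 and 14.3 FPKM in YAPKO1 cells. In sgCON cells the values were 14.5, 13.0 and 16.5 FPKM, against 22.7, 22.1 and 20.6 FPKM. The groups did not overlap in any of the lines. The log2 change was -1.75 ± 0.20 in YAPKO2 (adjusted p = 7.67e-06), -1.79 ± 0.20 in YAPKO1 (adjusted p = 1.43e-05) and -0.56 in sgCON, which did not pass the test. EPHA8 had 0.952, 1.09 and 0.584 FPKM with trametinib, against 3.90, 3.25 and 2.90 FPKM with DMSO in YAPKO2 cells (log2 change -1.5 ± 0.21, adjusted p = 6.71e-05). In YAPKO1 it had 0, 0.0576 and 0.0568 FPKM, against 0.460, 0.354 and 0.638 FPKM (-0.86 ± 0.21, adjusted p = 0.0162), a call lost without YAPKO1 DMSO replicate 3 or trametinib replicate 1 (adjusted p up to 0.0582). In sgCON cells EPHA8 had 0.0191, 0.117 and 0 FPKM, against 0.186, 0.151 and 0.239 FPKM, which do not overlap. That change was not called, at levels where the pseudocount of 0.5 understates it.

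NRP2 and EFNA1 rose with the drug in both knockout lines and NRP1 in YAPKO1, while SEMA3C fell in sgCON. NRP2 had 15.8, 18.1 and 14.6 FPKM with trametinib, against 7.44, 10.2 and 8.50 FPKM with DMSO in YAPKO2 cells, and 13.5, 15.8 and 16.0 FPKM, against 8.56, 7.56 and 7.46 FPKM in YAPKO1 cells. In sgCON the values were 10.0, 10.3 and 11.3 FPKM, against 10.4, 10.6 and 10.6 FPKM, which overlap. Its log2 change was 0.87 ± 0.13 in YAPKO2 (adjusted p = 0.00013) and 0.90 ± 0.13 in YAPKO1 (adjusted p = 0.000227). NRP1 had 17.9, 16.2 and 17.3 FPKM with trametinib, against 8.03, 6.80 and 7.63 FPKM with DMSO in YAPKO1 cells (1.14 ± 0.13, adjusted p = 1.46e-05), and 13.2, 13.0 and 16.3 FPKM, against 12.4, 11 and 11.2 FPKM in YAPKO2 cells (0.28, not called). EFNA1 had 2.46, 2.00 and 2.07 FPKM with trametinib, against 0.390, 0.482 and 0.936 FPKM with DMSO in YAPKO2 cells (1.31 ± 0.24, adjusted p = 0.000862). In YAPKO1 it had 0.923, 1.12 and 1.84 FPKM, against 0.268, 0.424 and 0.395 FPKM (1.03 ± 0.24, adjusted p = 0.0131), a call lost without YAPKO1 DMSO replicate 1 or trametinib replicate 3 (adjusted p up to 0.0792). In sgCON it had 0.458, 0.196 and 0.192 FPKM, against 0.294, 0.454 and 0.648 FPKM, which overlap. SEMA3C had 0.715, 0.665 and 0.979 FPKM with trametinib, against 3.42, 2.06 and 1.95 FPKM with DMSO in sgCON cells (-1.18 ± 0.20, adjusted p = 0.00171). The knockout lines were already near 0 without the drug.

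The remaining calls were made in 1 or 2 of the lines. In YAPKO2, SEMA6C had 11.2, 11 and 7.23 FPKM with trametinib, against 3.87, 4.16 and 4.25 FPKM with DMSO (log2 change 1.14 ± 0.24, adjusted p = 0.00267), and SEMA6D had 7.60, 6.75 and 10.4 FPKM, against 3.71, 3.81 and 4.04 FPKM (0.99 ± 0.24, adjusted p = 0.0065). NTN4 had 3.87, 2.90 and 3.82 FPKM, against 1.37, 1.10 and 1.69 FPKM (1.10 ± 0.30, adjusted p = 0.014), a call lost without YAPKO2 DMSO replicate 2 or trametinib replicate 1 (adjusted p up to 0.0578). SEMA4C, a PLXNB2 ligand, rose by 0.56 there, and PLXNA4 fell by 0.72, a PLXNA4 call that was lost without YAPKO2 DMSO replicate 2 (0.065). In YAPKO1, EFNB2 had 0.294, 0.269 and 0.426 FPKM with trametinib, against 1.08, 0.879 and 1.06 FPKM with DMSO (-0.86 ± 0.19, adjusted p = 0.00749). ROBO2 had 1.94, 1.63 and 1.94 FPKM, against 1.07, 0.596 and 0.820 FPKM (0.83 ± 0.21, adjusted p = 0.0191), a call lost without YAPKO1 DMSO replicate 2 or trametinib replicate 1 or 3 (up to 0.0959). In sgCON, PLXNA2 fell by 0.67 and UNC5B rose by 0.57, and each call ended without any 1 of the 6 libraries (up to 0.168 and 0.102, both without sgCON trametinib replicate 3). UNC5B (0.42) and SEMA3B (0.75) also rose in YAPKO2, where their groups overlapped, and EFNB1 (-0.65) and PLXNA2 (-0.58) fell. These were lost without up to 4 of the libraries, with adjusted p up to 0.196 for UNC5B without YAPKO2 DMSO replicate 3, and up to 0.178 for SEMA3B, 0.105 for PLXNA2 and 0.0567 for EFNB1, each without YAPKO2 DMSO replicate 2. The SEMA3B call also ended with GC correction (adjusted p = 0.119). The number of members called in sgCON was 5 without sgCON DMSO replicate 1 and 4 without any of the other libraries. In YAPKO2 it was 11 without YAPKO2 DMSO replicate 2 and 20 without YAPKO2 trametinib replicate 3. Fitted to the libraries of each response alone, 3 members were called in YAPKO1, NRP1, NRP2 and SLIT3.

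**Figure D5:**
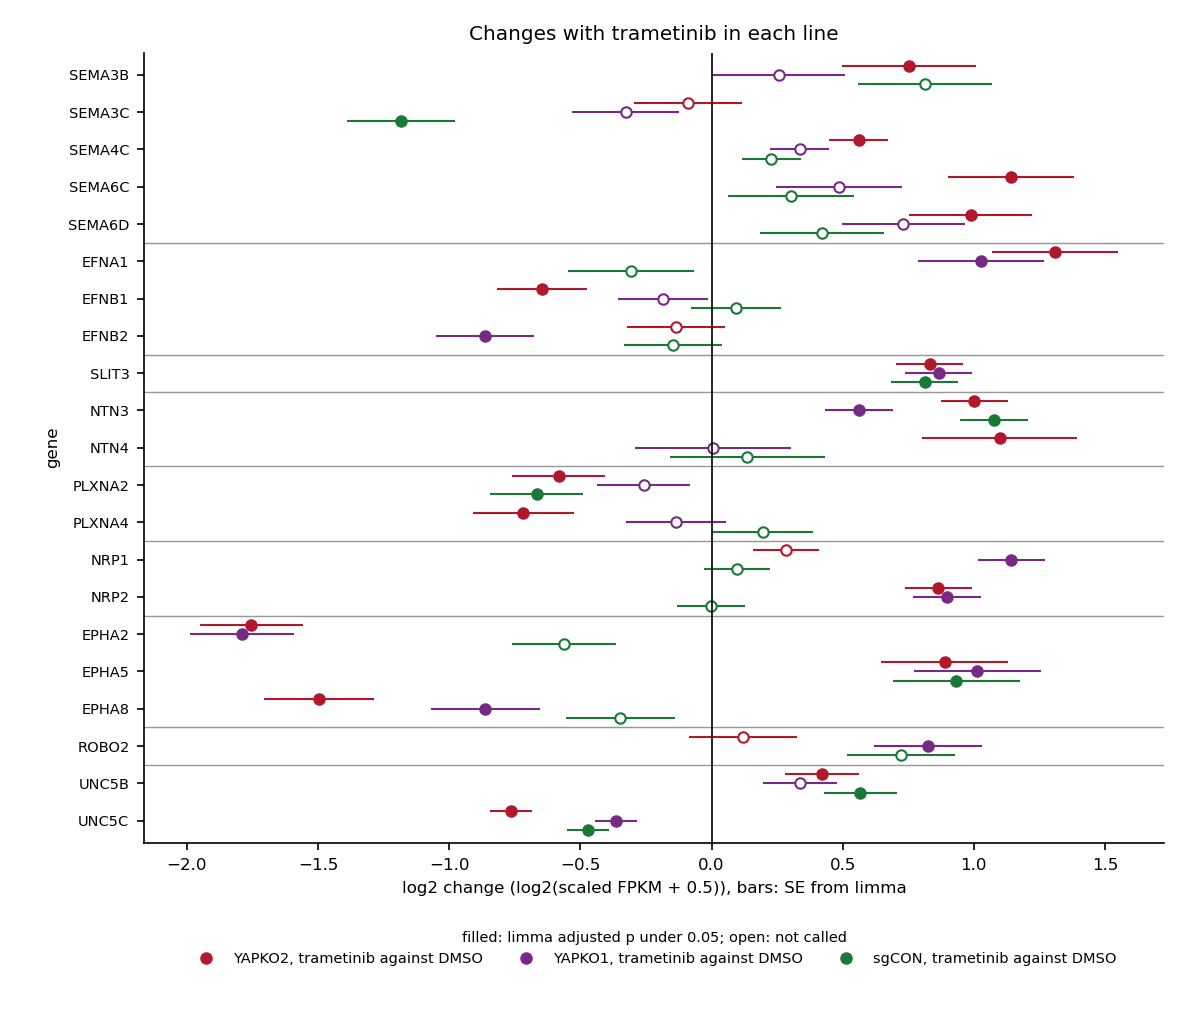
Log2 change ± SE (limma) with trametinib over DMSO in YAPKO2, YAPKO1 and sgCON cells, for each member called in any of the 3 lines. Filled points have an adjusted p under 0.05. The SLIT3 points lie together at 0.83, 0.87 and 0.81, while EPHA2 lies at -1.75 and -1.79 in the knockout lines and at -0.56 in sgCON.

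Whether a knockout line responded otherwise than sgCON was tested as the difference of the responses. For YAPKO2 5 members passed, 3 with a positive and 2 with a negative difference, which is 9.80% of those tested, beside 4.84% of all genes (1.83% positive and 3.01% negative). For YAPKO1 2 passed, both positive, which is 3.92%, beside 0.247% (0.198% positive and 0.0494% negative). NRP2 passed in both, with a difference of 0.87 ± 0.18 in YAPKO2 (adjusted p = 0.00973) and 0.90 ± 0.18 in YAPKO1 (adjusted p = 0.0498). The YAPKO2 response of EFNA1 exceeded that of sgCON by 1.61 ± 0.34 (adjusted p = 0.00975). These 2 YAPKO2 calls held under each of 22 alternatives, with the highest adjusted p at 0.035 for EFNA1 and 0.0307 for NRP2. EFNA1 entered the test through knockout libraries with trametinib alone, the groups where it was high, so its call is given as description. In sgCON cells EFNA1 averaged 0.282 FPKM with trametinib and 0.465 FPKM with DMSO. Both are below the pseudocount of 0.5, so its difference is not read as a size. EPHA2 fell further in YAPKO2 than in sgCON, with a difference of -1.19 ± 0.28 (adjusted p = 0.0186), a call lost without sgCON trametinib replicate 3 or YAPKO2 DMSO replicate 2 (up to 0.0541). In YAPKO1 the EPHA2 difference was -1.23 and did not pass. EPHA8 passed in YAPKO2, at -1.15 ± 0.30 (adjusted p = 0.0318), as did SEMA3C, whose value is not read as a size because YAPKO2 cells with trametinib are listed at 0. The EPHA8 value is not read as a size either. In sgCON cells EPHA8 averaged 0.0455 FPKM with trametinib and 0.192 FPKM with DMSO, where the pseudocount understates its response. NRP1 passed in YAPKO1, at 1.05 ± 0.18 (adjusted p = 0.02). Its call, like the NRP2 call in YAPKO1, rested on single libraries. The NRP1 call ended without any of 7 of the 12 libraries (adjusted p up to 0.0725, without sgCON DMSO replicate 3), and the NRP2 call in YAPKO1 without any of the 12 (up to 0.143, without sgCON DMSO replicate 3). The EPHA8 and SEMA3C calls each held in 11 of the 22 alternatives. With a pseudocount of 0.1 both calls ended, with an adjusted p of 0.635 for EPHA8, whose difference was then -0.77, and 0.347 for SEMA3C. EPHA8 was lost without any of 8 of the 12 libraries (adjusted p up to 0.0915, without YAPKO2 DMSO replicate 1), and SEMA3C without any of 7 (up to 0.11, without sgCON DMSO replicate 1).

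The control-guide line was set against parental NLF to see what differed without YAP1 loss. In sgCON 7 members were higher and 10 lower, which is 33.3%, beside 15.7% of all genes (7.93% higher and 7.82% lower). PLXNA4 had 1.04, 0.574 and 1.03 FPKM in sgCON cells, against 9.58, 8.94 and 9.36 FPKM in parental cells (log2 change -2.85 ± 0.19, adjusted p = 5.82e-08). NRP1 had 31.3, 27.5 and 32.6 FPKM in sgCON cells, against 87.8, 80.6 and 97.8 FPKM in parental cells (-1.53 ± 0.13, adjusted p = 3.73e-07). EPHA2 had 22.7, 22.1 and 20.6 FPKM in sgCON cells, against 9.32, 8.89 and 9.93 FPKM in parental cells (1.18 ± 0.20, adjusted p = 0.000516). None of the 3 genes overlapped between the lines. SEMA3B, a secreted class 3 semaphorin, had 0.648, 0.433 and 0.488 FPKM in sgCON cells, against 2.06, 1.64 and 2.38 FPKM in parental cells (-1.3 ± 0.26, adjusted p = 0.00196). SEMA6A, a membrane-bound plexin ligand, had 9.67, 5.70 and 6.85 FPKM in sgCON cells, against 3.60, 4.72 and 2.81 FPKM in parental cells (0.90 ± 0.21, adjusted p = 0.00571). ROBO2 had 1.41, 0.816 and 0.658 FPKM in sgCON cells, against 0.273, 0.259 and 0.168 FPKM in parental cells (0.96 ± 0.21, adjusted p = 0.00361). These too were separate. Of the others, SEMA4D, EFNA2, EPHB2 and PLXNB2 were higher by 0.49 to 0.87, and PLXNC1, PLXNA2, PLXNA1, UNC5B and UNC5C were lower, with log2 changes of -0.87 to -0.49. The EPHB2 call was lost without parental replicate 3 or sgCON DMSO replicate 1 (up to 0.0652), the PLXNC1 call without parental replicate 2 or sgCON DMSO replicate 1 (up to 0.0701), and the PLXNB2 call without any of 4 libraries (up to 0.0869, without parental replicate 1). NTN4 fell by 1.23 on the log2 scale (adjusted p = 0.00856), with parental replicate 3 at 2.65 FPKM far above the 0.648 and 0.692 FPKM of the other parental libraries, and by 0.75 without that library (adjusted p = 0.0348). SEMA3D, with 16.3, 14.3 and 15 FPKM in sgCON cells, against 36.8, 34.2 and 37.6 FPKM in parental cells, fell by 1.23 (adjusted p = 0.0481), but leaving out any 1 of the 6 libraries ended the call (up to 0.125, without sgCON DMSO replicate 2).

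Set against parental cells instead, the SEMA3C and NRP1 differences were larger and that of PLXNA4 had the other sign. In YAPKO2 20 members were higher and 11 lower than in parental cells (60.8%, beside 37.6% of all genes, 19.9% higher and 17.7% lower), and in YAPKO1 14 were higher and 10 lower (47.1%, beside 27.1%, 14.8% higher and 12.4% lower). The SEMA3C and NRP1 log2 changes were -2.91 and -2.89 in YAPKO2 and -2.60 and -3.48 in YAPKO1, and SEMA3F was higher by 2.25 in YAPKO2 and 1.27 in YAPKO1. PLXNA4, which was higher in both knockout lines than in sgCON, was lower in both than in parental cells, with log2 changes of -1.08 in YAPKO2 (adjusted p = 0.000355) and -1.61 in YAPKO1 (adjusted p = 9.38e-06). EPHA2 was lower than in parental cells in YAPKO2, with a log2 change of -1.04 (adjusted p = 0.000616), while YAPKO1, at 8.84, 9.37 and 14.3 FPKM, was not called against the 9.32, 8.89 and 9.93 FPKM of parental cells (0.17). SLIT3 was higher by 1.16 in YAPKO2 (adjusted p = 2.39e-06) and by 0.37 in YAPKO1 (adjusted p = 0.0396), the YAPKO1 call being lost without any 1 of 5 libraries (up to 0.175, without YAPKO1 DMSO replicate 3). EPHB2 was higher by 0.77 in YAPKO2 and 2.27 in YAPKO1, and EPHA8 by 2.77 in YAPKO2 and 0.80 in YAPKO1. With GC correction EPHB2 was higher by 0.51 in YAPKO2 and EPHA8 by 0.53 in YAPKO1, both still called. PLXNC1, a receptor for SEMA7A, fell by 1.64 in YAPKO2 and by 1.37 in YAPKO1, and EFNA2 was higher by 1.40 and 1.33 in the same lines. SEMA3D had 12.6, 5.52 and 8.42 FPKM in YAPKO2 cells and 15.8, 11.7 and 4.74 FPKM in YAPKO1 cells, against 36.8, 34.2 and 37.6 FPKM in parental cells (-2.04 in YAPKO2, adjusted p = 0.000879, and -1.85 in YAPKO1, adjusted p = 0.00266). SEMA6A rose by 1.18 in YAPKO2 and 1.51 in YAPKO1. UNC5B, NTN4, ROBO3, SLIT2 and EFNB2, called in both lines against sgCON, were called in neither against parental cells. UNC5B averaged 10.9 FPKM in YAPKO2, 11.8 FPKM in YAPKO1 and 10.4 FPKM in parental cells. NTN4 averaged 1.38, 0.900 and 1.33 FPKM, with parental replicate 3 at 2.65 FPKM. PLXNA2, at 21.7, 16.6 and 14.6 FPKM, was called in YAPKO2 alone (log2 change 0.55). That call did not hold under every alternative. SEMA4B, with log2 changes under 1, lost its call in both lines without parental replicate 3 (adjusted p = 0.0784 in YAPKO2 and 0.099 in YAPKO1), and with GC correction (0.137 in YAPKO2 and 0.064 in YAPKO1). The labels leave the culture of the parental samples uncertain, since the series text names the DMSO treatment for the derived lines and the sample labels name it for all.

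Several members lie close together on their chromosomes, and neighbours did not always move together. On chromosome 7 (GRCh38) SEMA3C, SEMA3E, SEMA3A and SEMA3D follow each other with gaps of 2.44 Mb, 307 kb and 503 kb. In YAPKO2 cells in DMSO, SEMA3C and SEMA3A fell and SEMA3D had an uncalled log2 change of -0.82. On chromosome 3, SEMA3F and SEMA3B lie 78.5 kb apart, and SEMA3F rose by 1.97 while SEMA3B had an uncalled change of 0.18. EFNA4, EFNA3 and EFNA1 lie in a row with gaps of 9.32 kb and 39.9 kb on chromosome 1, with log2 changes of 1.01, 0.84 and 0.18 in the same comparison. Under trametinib, with YAPKO2 set against sgCON, the 3 changes were 1.07, 0.97 and 1.79. EFNA3 and EFNA4 share exon sequence on the same strand with AL691442.1, and PLXNB3 with SRPK3, so their reads could be split. SEMA3B shares exon sequence on its own strand with a microRNA gene. Among tested members, NRP1, NRP2, SLIT3, EFNB2, EPHA5, SEMA3F, SEMA4G, SEMA6A, PLXNC1 and UNC5C overlap antisense RNA genes in their exons, and SEMA4G, PLXNC1, EPHB2, EPHB4 and PLXNA3 overlap other genes of the opposite strand. Whether the quantification used the strand is not given in the sources used here.

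Other genes of the guidance pathways, listed with earlier results known, moved in both directions. Of 49 further guidance ligands, receptors and adhesion molecules, 32 were tested, and 7 rose and 6 fell in YAPKO2 (40.6%, beside 26.9% of all genes) and 5 rose and 5 fell in YAPKO1 (31.3%, beside 11.9%) against sgCON in DMSO. Their median log2 changes were -0.01 in YAPKO2 and -0.07 in YAPKO1. CXCR4, a chemokine receptor that guides migrating neural cells, averaged 33.7 ± 3.94 FPKM in YAPKO2 and 3.39 ± 0.697 FPKM in YAPKO1, against 0.299 ± 0.103 FPKM in sgCON cells (SD, n = 3 each), log2 changes of 5.42 and 2.28. NRCAM, a neuronal adhesion molecule, fell by 2.05 in YAPKO2, and ADGRL3 by 1.35. WNT5A was listed at 0 in YAPKO2 libraries and averaged 1.35 ± 0.407 FPKM in sgCON cells. In YAPKO1 DRAXIN, a netrin antagonist, rose by 1.3, while CNTN1 fell by 1.25 and LRRC4C, which binds netrin G1, by 1.2. Of 58 cytoplasmic effectors, 55 were tested, with 13 higher and 9 lower in YAPKO2, which is 40% of them, and 4 higher and 4 lower in YAPKO1, which is 14.5% and near the share of all genes. MICAL2, an actin-oxidising enzyme of a family that acts below plexins, fell by 1.40 in YAPKO2 and 0.87 in YAPKO1, and SRGAP3, of the slit-ROBO GTPase-activating family, rose by 1.29 and 0.77.

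GAP43, an effector and growth cone protein, responded to trametinib in opposite directions in YAPKO2 and the other lines. It averaged 57.3 ± 8.23 FPKM with trametinib, against 142 ± 18 FPKM with DMSO in YAPKO2 cells (log2 change -1.31, SD and n = 3 each). In YAPKO1 it averaged 95.0 ± 11.9 FPKM, against 43.2 ± 4.14 FPKM (1.13), and in sgCON 141 ± 10.9 FPKM, against 55.7 ± 3.66 FPKM (1.33). The YAPKO2 response differed from that of sgCON by -2.64 ± 0.17 on the log2 scale (limma, adjusted p = 2.49e-07). CXCR4 also fell with trametinib in YAPKO2, to 9.78 ± 1.43 FPKM, against 33.7 ± 3.94 FPKM with DMSO (-1.74). Of the further guidance genes 5 rose and 3 fell with trametinib in YAPKO2 (25% of those tested, beside 19.9% of all genes), 3 rose in YAPKO1 (9.38%, beside 7.82%) and 1 rose in sgCON (3.13%, beside 5.17%). Of the effectors 5 rose and 7 fell in YAPKO2 (21.8%), 2 rose and 6 fell in YAPKO1 (14.5%), and 1 rose and 3 fell in sgCON (7.27%). SSH2, a phosphatase that activates cofilin, fell in each line, by 0.97 in YAPKO2, 0.92 in YAPKO1 and 1.36 in sgCON.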

How the data were processed

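RNA was made into stranded total RNA libraries after removal of ribosomal RNA, per the labels' protocols. The authors deposited FPKM values per gene in 2 tables that differ by 1 factor per library (0.927 to 1.07), made with STAR 2.4.2 and RSEM 1.3.0 on hg19, per the submitters' processing notes. The annotation and the use of strand are not given in the sources used here. The table not named calibrated was used, and the calibrated one served as an alternative. Columns headed DMSO with a replicate number were taken as parental cells. Sample labels give DMSO at 0.01% and the series text at 0.1%.

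FPKM were scaled by the median ratio to each gene's geometric mean (factors 0.961 to 1.06). Genes with at least 1 FPKM in at least 3 libraries were tested as log2(FPKM + 0.5) with limma 3.58.1 in R 4.3.3, fitting 7 group means over 21 libraries with a trended prior, two-sided, with Benjamini-Hochberg adjustment over 16194 genes. There were 13 comparisons. The fit was tested on simulated data. The members and lists were chosen with earlier results of these data known. Named genes are YAP1, the most abundant member of each class, members called in a comparison (the 8 largest changes with values per library), and up to 4 called genes of each other list. GC content came from GENCODE on GRCh38 for 96.4% of tested genes, with a spline of 5 degrees of freedom per library in the corrected fit. Pseudocount, filter, scaling, table, normalization, fitted groups, replicate block, GC correction and single libraries were varied.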

Additional observations from a re-analysis of the deposited data

Results flagged for a closer look

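The trametinib response of 7 gene and line combinations differed from that of sgCON cells by the limma test of the difference itself (adjusted p under 0.05 over all genes). In YAPKO1 the differences were 1.05 for NRP1 and 0.90 for NRP2, on the log2 scale. In YAPKO2 they were 1.61 for EFNA1, 0.87 for NRP2, -1.19 for EPHA2, -1.15 for EPHA8 and 1.09 for SEMA3C. EFNA1 entered the test through knockout libraries with trametinib alone, and its sgCON means were below the pseudocount. The SEMA3C value depends on the pseudocount, because YAPKO2 cells with trametinib are listed at 0. The EPHA8 call ended with a pseudocount of 0.1, where its difference was -0.77 (adjusted p = 0.635).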

How the results depend on the processing

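No member's called change reversed under any alternative. Of 216 calls, 208 held with a pseudocount of 0.1, 214 with 1, 189 without the filter, 208 without scaling, 205 with the calibrated table, 208 with quantile normalization and 196 with GC correction, while 156 held when only the groups compared were fitted. The members called then numbered 8 (14 as reported) for YAPKO1 and sgCON in DMSO, 20 (34) for YAPKO2 and sgCON in trametinib, 3 (11), 8 (17) and 12 (7) for the trametinib responses of YAPKO1, YAPKO2 and sgCON, 5 (9) for YAPKO2 and YAPKO1, and 15 (24) for YAPKO1 and parental cells. GC correction gave 17 (11) for the YAPKO1 response. The response difference of YAPKO1 had 2 calls, 1 with a pseudocount of 0.1, no filter, no scaling, the calibrated table or quantile normalization, and 0 with only the groups compared. That of YAPKO2 had 5, 3 with a pseudocount of 0.1 or only the groups compared, and 9 with GC correction. The cause was not tested; fewer libraries in the fit lower its degrees of freedom. Leaving out 1 library gave 9 to 16 calls for YAPKO1 and sgCON in DMSO, 4 to 5 for the sgCON response, 11 to 20 for the YAPKO2 response, and 0 to 1 and 3 to 6 for the response differences of YAPKO1 and YAPKO2. Over all such fits 1081 of 1338 calls held.

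Libraries with the same replicate number did not deviate together (63 pairs, correlations of -0.55 to 0.36, 4 over 0.1), and the main fit used no pairing. Deviations from means of 3 libraries cannot show whether same-numbered samples were handled together. With a replicate block 201 of the 216 calls held, and the response differences had 1 call in YAPKO1 and 3 in YAPKO2. The block with GC correction held 192 and gave 8 calls for the YAPKO2 difference. Depth is unknown in FPKM, so changes of members under 1 FPKM carry no counting interval.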
